A study of Mus musculus with 6 samples.

Results

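Excitation-contraction coupling and calcium handling genes were examined in the tibialis anterior (TA) muscle of aged mice given BML-260 or vehicle. The group held 10 genes listed by symbol: the calcium pumps Atp2a1 and Atp2a2, the pump inhibitor Sln, the cytosolic calcium buffer Pvalb, the store proteins Casq1 and Casq2, and the release unit genes Ryr1, Cacna1s, Jph1 and Stac3. All 10 were found by symbol in the TPM tables and joined by gene identifier to the count table, which lists 45777 genes. All 10 were also among the 16188 genes that passed the filter on low counts. The mice were male C57BL/6J animals, aged 24 months by the sample labels, although the study's text gives other ages for this experiment. BML-260, a small molecule used to inhibit the phosphatase DUSP22, was injected intraperitoneally each day at 5 mg/kg for 4 weeks in 3 mice, and 3 mice received the vehicle, a mixture of DMSO and Tween 80. No untreated or young animals were sequenced with them, and each library came from the total RNA of 1 mouse.

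In a muscle fiber, an action potential runs down the transverse tubules and is sensed by the L-type calcium channel, which opens the ryanodine receptor of the facing sarcoplasmic reticulum. Calcium that leaves the reticulum triggers contraction, and the SERCA pumps return it, with calsequestrin holding calcium inside the store and parvalbumin binding it in the cytosol of fast fibers. The TA is a fast muscle in mice. Atp2a1 and Casq1 are the fast fiber forms of the pump and of calsequestrin, whereas Atp2a2 and Casq2 are the forms of slow fibers and the heart.

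Sln, the smallest of these genes, encodes a short membrane peptide that binds the SERCA pump and lowers its calcium transport. It lies on chromosome 9 from 53850164 to 53854560 on the plus strand (mm10, GENCODE M21), and no other annotated gene overlaps it. Its coding sequence is 96 bases long and is shown because Sln had the lowest log2 fold change of the 10 genes, with the start and stop codons in capitals.
Sln: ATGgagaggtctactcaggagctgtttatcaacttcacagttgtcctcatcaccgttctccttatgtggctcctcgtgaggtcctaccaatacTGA

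RefSeq promoter windows, 250 bases before the start site in GRCm38.p6 (the same build as mm10), were at hand for 6 of the 10 genes. Those of Pvalb (chr15:78206401-78206650, minus strand) and Casq1 (chr1:172219896-172220145, minus strand) are shown because the levels of both genes were far lower in 1 vehicle library, and that of Casq2 (chr3:102086165-102086414, plus strand) as the paralog of Casq1. Capitals mark the E-box (CANNTG), the motif of myogenic bHLH factors, and the MEF2 site. Both motifs read the same on either strand, and no marked pair overlapped in these windows.
Pvalb: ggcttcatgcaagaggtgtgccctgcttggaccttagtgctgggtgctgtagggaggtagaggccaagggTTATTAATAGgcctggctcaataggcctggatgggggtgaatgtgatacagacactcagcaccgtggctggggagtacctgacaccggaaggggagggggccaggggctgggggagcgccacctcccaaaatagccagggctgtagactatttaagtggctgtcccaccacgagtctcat
Casq1: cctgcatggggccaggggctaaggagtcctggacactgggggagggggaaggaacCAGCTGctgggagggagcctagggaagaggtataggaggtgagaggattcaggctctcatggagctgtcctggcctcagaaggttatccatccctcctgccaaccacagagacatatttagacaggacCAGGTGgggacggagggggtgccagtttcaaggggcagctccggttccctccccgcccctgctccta
Casq2: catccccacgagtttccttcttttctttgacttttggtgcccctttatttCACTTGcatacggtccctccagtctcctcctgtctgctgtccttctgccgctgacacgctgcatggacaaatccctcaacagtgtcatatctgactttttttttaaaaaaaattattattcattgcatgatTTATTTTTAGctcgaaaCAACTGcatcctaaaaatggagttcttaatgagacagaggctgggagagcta
The Pvalb window held a MEF2 site 180 bases before the start site and no E-box, and a second, downstream Pvalb start has a window of its own. The Casq1 window held 2 E-boxes, 195 and 67 bases before the start, and no MEF2 site. The Casq2 window held 2 E-boxes and a MEF2 site 69 bases before the start. Over 32536 windows of this length, 66.2% held an E-box and 2.89% a MEF2 site. Such matches describe the letters only.

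The 6 libraries held between 39522890 and 56998875 counts, and the 10 genes took between 1.96% and 3.23% of them. Over all 16188 genes tested with edgeR's quasi-likelihood test, 931 (5.75%) changed by 1.3-fold or more at an unadjusted p below 0.05, the threshold used here, and they were mostly lower with BML-260 (4.86% lower, 0.896% higher). No gene had an adjusted p under 0.05, and 966 had an unadjusted p under 0.05. With DESeq2's Wald test, 95 genes had an adjusted p under 0.05. Vehicle replicate 3 stood apart from the other 5 libraries. Of the 8 slow fiber markers, 7 had their highest TPM in it, and the summed TPM of the list was 1186 there, 108 and 110 in the other vehicle libraries and 104 to 211 in the BML-260 libraries. The markers of macrophages (9 of 9), erythroid cells (5 of 5), Schwann cells (6 of 6) and smooth muscle and pericytes (6 of 7) were also highest in it, and the adipocyte list was highest for all 4 genes with TPM. The smooth muscle and pericyte list includes Des, the desmin gene, which skeletal muscle fibers also express. Fast fiber markers summed to between 84370 and 104150 TPM in every library, so the tissue carried the markers of a fast muscle. Of the 6 cardiac markers, Nppa, Nppb, Myl7 and Tnni3 were not listed with TPM. Myh6 and Ryr2 were listed, and both were highest in vehicle replicate 3. Myh6 was at 1.85 TPM there and 0.182 to 0.698 TPM elsewhere, and Ryr2 at 0.0975 TPM there and 0.0141 to 0.0640 TPM elsewhere. Scaling also mattered for this library: the median tested gene in vehicle replicate 3 stood at 1.41 times the mean of the other libraries in TPM and at 0.996 times in normalized counts (counts divided by DESeq2's size factors).

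Of the 10 genes, 7 had a higher and 3 a lower level with BML-260, where 49.5% of all tested genes were higher. Of the 10, 3 passed the threshold: Sln and Atp2a2 were lower and Jph1 was higher. The background shares are 4.86% of tested genes called lower and 0.896% called higher. No adjusted p among the 10 was under 0.598. The median log2 fold change of the 10 was 0.37, against a median of -0.0039 over all tested genes, and 0.18 without vehicle replicate 3. In normalized counts 4 of the 10 genes showed no overlap between groups (Sln, Ryr1, Cacna1s and Jph1), against 12.1% of all tested genes. In TPM Sln alone did so, and the share over all genes was not computed on that scale. The log2 fold changes that follow are edgeR estimates of BML-260 over vehicle with standard errors (SE), from 3 libraries per group. In bulk tissue, a smaller share of one fiber or cell type and less RNA per cell cannot be told apart.

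**Figure D1:**
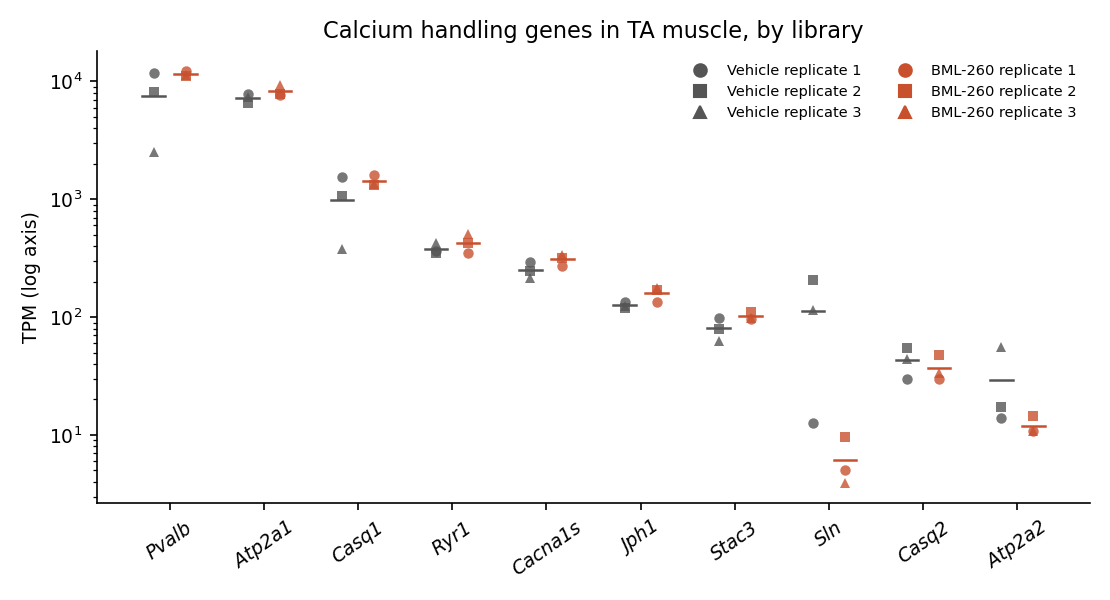
TPM of the 10 genes (log axis) in the 3 vehicle (grey) and 3 BML-260 (orange) libraries, with a marker shape per replicate and a bar at each group mean. Sln is the gene whose groups separate, with 12.5 to 208 TPM in vehicle and 3.92 to 9.58 TPM in BML-260, and vehicle replicate 3 is low for Pvalb and Casq1 and high for Atp2a2.

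TPM is scaled for transcript length, so that levels can be compared between genes. By mean TPM over the 6 libraries, Pvalb (9565) and Atp2a1 (7780) ranked 19 and 20 of 16800 genes and their ranges overlapped. Casq1 followed at 1211, Ryr1 at 405 and Cacna1s at 280. The range of Casq1 (381 to 1603) overlapped that of Ryr1 (350 to 503), which lay wholly above that of Cacna1s (216 to 337). Jph1 (mean 143) and Stac3 (mean 90.7) came next, each with a range wholly below that of the gene before it. Sln (58.9), Casq2 (40.0) and Atp2a2 (20.5) were the lowest. The ranges of these last 3 overlapped, and that of Sln also took in those of Jph1 and Stac3. Sln varied 53.0-fold between its highest and lowest library, whereas Atp2a1 varied 1.43-fold and Ryr1 1.44-fold. The spread within vehicle was the larger one for 7 of the 10 genes, as judged by the coefficient of variation of TPM, for example 62.7% in vehicle against 4.63% in BML-260 for Pvalb.

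Sln, the inhibitor of the pump, was lower in every BML-260 library than in any vehicle library. Its TPM was 12.5, 208 and 114 in vehicle replicates 1, 2 and 3, and 4.99, 9.58 and 3.92 in the BML-260 replicates. These rested on 193, 2526 and 1626 raw counts in vehicle and on 94, 138 and 47 in BML-260. Vehicle replicate 1 lay close to the BML-260 libraries: its normalized count of 184 was 1.33 times the highest BML-260 value, while vehicle replicates 2 and 3 reached 3210 and 1216. The vehicle mean of 1537 ± 1538 normalized counts (SD, n = 3) was 16.7 times the BML-260 mean of 92.2 ± 41.4 (SD, n = 3). The log2 fold change was -4.06 (SE 0.90, edgeR unadjusted p = 0.00171, adjusted p = 0.598), and 13 of the 16188 tested genes had a lower one.

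The direction of Sln did not rest on a single library. Leaving out each library in turn gave log2 fold changes between -4.58 and -2.92, lowest without vehicle replicate 1 and least negative without vehicle replicate 2. Without vehicle replicate 3 the value was -4.19 (SE 0.82). Sln passed the threshold of fold and unadjusted p under all 16 alternatives, with adjusted p between 0.0222 and 0.984. The adjusted p was under 0.05 with DESeq2's Wald test (0.0222) and with edgeR without vehicle replicate 1 (0.0451).

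A list of denervation genes was set beside Sln. Muscle fibers are known to express most of them more strongly when nerve contact is lost. This list, like the other marker lists, was chosen with earlier results of these data known, so its counts are descriptive and test nothing. Of its 9 genes with TPM, 7 passed the threshold and were lower with BML-260, against 4.86% of all tested genes. Chrnd and Sarm1 did not pass. The summed TPM of the 9 genes was 87.9, 197 and 315 in the vehicle libraries and 38.1, 57.2 and 55.2 in the BML-260 libraries. The groups did not overlap in this sum, and vehicle replicate 1 was again the vehicle library nearest to BML-260. Runx1, a transcription factor induced in denervated muscle, had a log2 fold change of -2.57 (SE 0.39, edgeR adjusted p = 0.553). Myog, the myogenic factor that activates acetylcholine receptor genes, had one of -1.91 (SE 0.51, adjusted p = 0.649), and Chrna1, the alpha subunit of that receptor, one of -1.50 (SE 0.31, adjusted p = 0.553). Sln was highest in vehicle replicate 2, whereas the sum was highest in vehicle replicate 3. Macrophage markers were also lower with BML-260 for 8 of 9 genes past the threshold, with sums of 139, 139 and 580 TPM in vehicle and 95.6, 82.3 and 105 TPM in BML-260 that did not overlap. Erythroid markers were lower for 3 of 5 genes, with sums of 1949, 2128 and 8752 TPM in vehicle and 1646, 1619 and 2162 TPM in BML-260 that overlapped. The part of any of these genes in the Sln result was not tested.

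**Figure D2:**
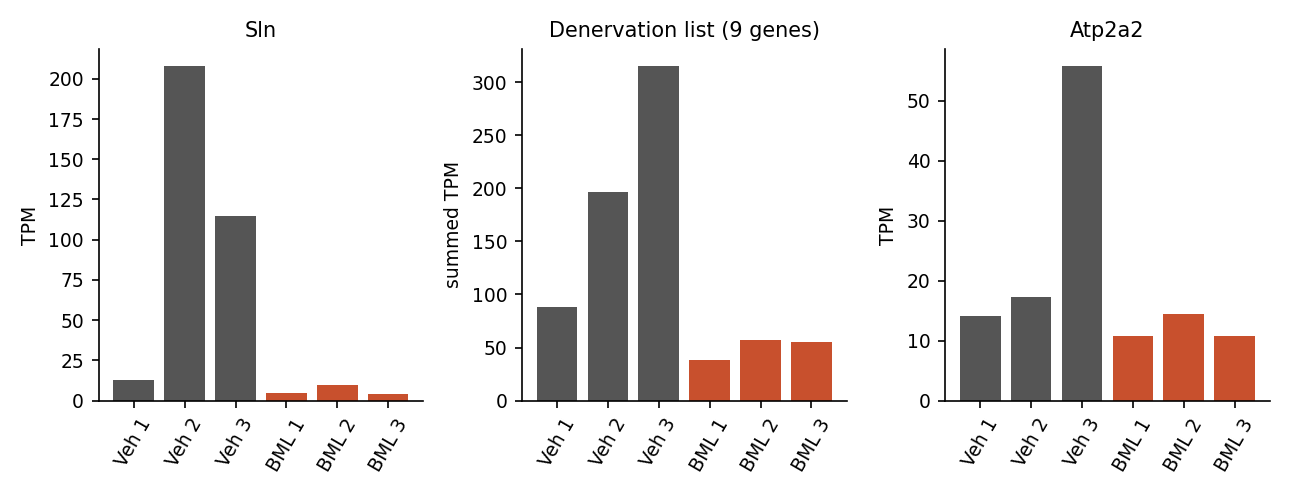
Bars give, for each library (Veh, vehicle, grey; BML, BML-260, orange), the TPM of Sln, the summed TPM of 9 genes of the denervation list, and the TPM of Atp2a2. Sln and the sum are both lower in the 3 BML-260 libraries than in every vehicle library, while Atp2a2 is high in vehicle replicate 3 (55.8 TPM) and between 10.7 and 17.3 TPM in the other 5.

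Atp2a1, the SERCA1 pump of fast fibers, made up nearly all SERCA message. Its TPM was 7777, 6556 and 7357 in vehicle and 7738, 7899 and 9355 in BML-260, and the groups overlapped. The log2 fold change was 0.34 (SE 0.30, edgeR adjusted p = 0.802), which did not pass the threshold. Gene Rabep2 overlaps Atp2a1 on the opposite strand, and the strand rule of the counting is not given in the sources used here. Other annotated genes, none of them protein-coding, overlap Atp2a2, Casq1, Casq2, Ryr1, Cacna1s and Jph1. No annotated gene overlaps Pvalb or Stac3.

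Atp2a2, the SERCA2 pump of slow fibers, heart and non-muscle cells, was lower with BML-260 by a margin set largely by vehicle replicate 3. Its TPM was 14.0, 17.3 and 55.8 in vehicle and 10.7, 14.4 and 10.8 in BML-260, so that vehicle replicate 1 lay below BML-260 replicate 2. The log2 fold change was -0.96 (SE 0.35, edgeR unadjusted p = 0.0246, adjusted p = 0.788). Without vehicle replicate 3 it was -0.38 (SE 0.15, edgeR unadjusted p = 0.0309, adjusted p = 0.991), still past the threshold. The call was lost in both limma fits on log2 TPM (unadjusted p = 0.0849 with a pseudocount of 1 and 0.0694 with 0.1), without BML-260 replicate 1 (edgeR unadjusted p = 0.0683) and without BML-260 replicate 3 (edgeR unadjusted p = 0.0806). In these 4 fits the log2 fold change was between -0.999 and -0.895, close to that from all libraries with edgeR. The slow fiber, macrophage, and smooth muscle and pericyte lists, the last with Des, were highest in the same vehicle library. Their part in the level of Atp2a2 was not tested. Apart from vehicle replicate 3, the slow fiber sum was 108 and 110 TPM in vehicle and 104, 211 and 150 TPM in BML-260, and the macrophage sum was 139 and 139 TPM in vehicle and 95.6, 82.3 and 105 TPM in BML-260.

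The shares of the pump messages put these genes on one scale. Atp2a2 made up 0.180%, 0.263% and 0.752% of SERCA TPM in vehicle and 0.138%, 0.182% and 0.115% in BML-260. The means were 0.398% ± 0.309 and 0.145% ± 0.0341 (SD, n = 3 each; exact permutation test, 2-sided, p = 0.2), and the groups overlapped. Sln amounted to 1.61, 31.6 and 15.4 TPM per 1000 SERCA TPM in vehicle and to 0.645, 1.21 and 0.419 in BML-260. These did not overlap (exact permutation test, 2-sided, p = 0.1, the smallest that 3 libraries against 3 can give).

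**Figure D3:**
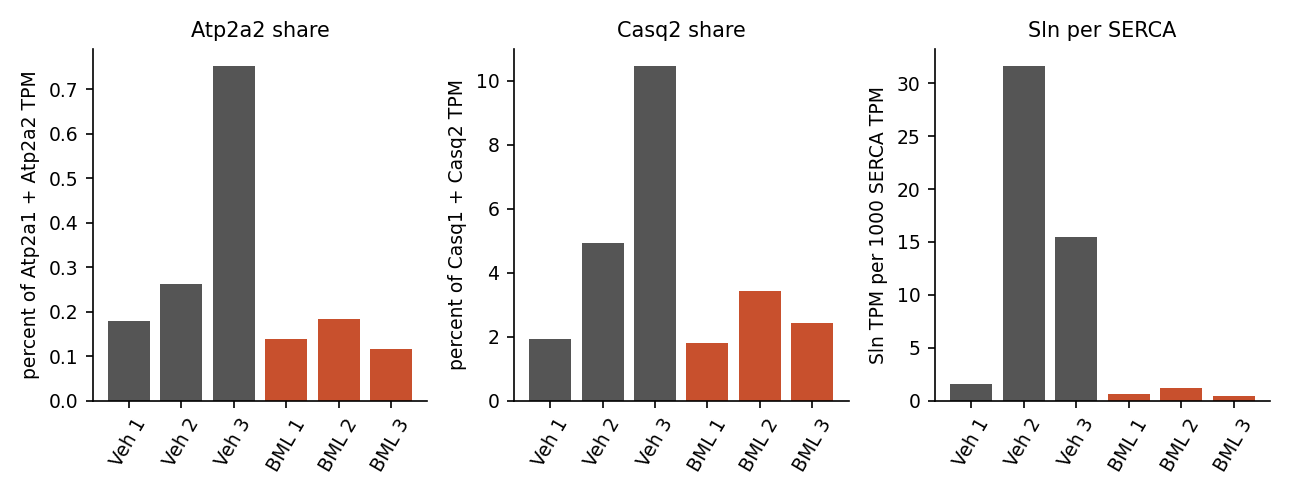
Bars give, for each library (Veh, vehicle, grey; BML, BML-260, orange), the percent of SERCA TPM from Atp2a2, the percent of calsequestrin TPM from Casq2, and Sln TPM per 1000 SERCA TPM. Both shares are highest in vehicle replicate 3, at 0.752% and 10.5%, and Sln per SERCA is highest in vehicle replicate 2, at 31.6.

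Pvalb, the calcium buffer of the fastest fibers, and Casq1, the calcium store protein of fast fibers, did not pass the threshold. Pvalb TPM was 11885, 8214 and 2511 in vehicle and 12193, 11156 and 11434 in BML-260. Vehicle replicate 1 lay within the BML-260 range, and replicate 3 held 0.229 times the mean of the other 5 libraries in TPM and 0.162 times in normalized counts. The log2 fold change of Pvalb was 0.66 (SE 0.57, edgeR adjusted p = 0.800) and was 0.20 without vehicle replicate 3. Without vehicle replicate 1 it was 1.17. Neither of the last 2 fits passed the threshold.

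Casq1 followed the same pattern across libraries. Its TPM was 1536, 1060 and 381 in vehicle and 1603, 1333 and 1355 in BML-260. The log2 fold change was 0.58 (SE 0.52, edgeR adjusted p = 0.802), 0.13 without vehicle replicate 3 and 1.07 without vehicle replicate 1. In vehicle replicate 3 it stood at 0.276 times the mean of the other libraries in TPM. Of the 9 fast fiber markers, 5 also had their lowest TPM in that library and 2, Tnni2 and Tnnt3, had their highest there. In normalized counts, all of the 9 but Myh1 were lowest in that library. On that scale Tnni2 stood at 0.786 times and Tnnt3 at 0.891 times the mean of the other libraries. The sum of the list was 84370 TPM there against 91392 to 104150 in the others. Myl1, a fast myosin light chain chosen after its values were seen, was at 5757 TPM there and between 12126 and 15911 TPM elsewhere. Their part in the levels of Casq1 and Pvalb was not tested. Casq2, the slow and cardiac calsequestrin, had TPM of 30.0, 54.9 and 44.4 in vehicle and 29.6, 47.3 and 33.7 in BML-260, and its log2 fold change was -0.11 (SE 0.27, edgeR adjusted p = 0.921). The sign of that value turned without vehicle replicate 2, to 0.26.

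The Casq2 share of calsequestrin TPM was 1.92%, 4.92% and 10.5% in vehicle and 1.81%, 3.43% and 2.43% in BML-260 (exact permutation test, 2-sided, p = 0.3). The value of vehicle replicate 3 combined a low Casq1 with a Casq2 level inside the range of the other libraries. Transcripts of Casq1 and Casq2 shared no stretch of 50 bases in the annotation, nor did those of Atp2a1 and Atp2a2, although their coding sequences were 69.8% and 75.7% identical.

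**Figure D4:**
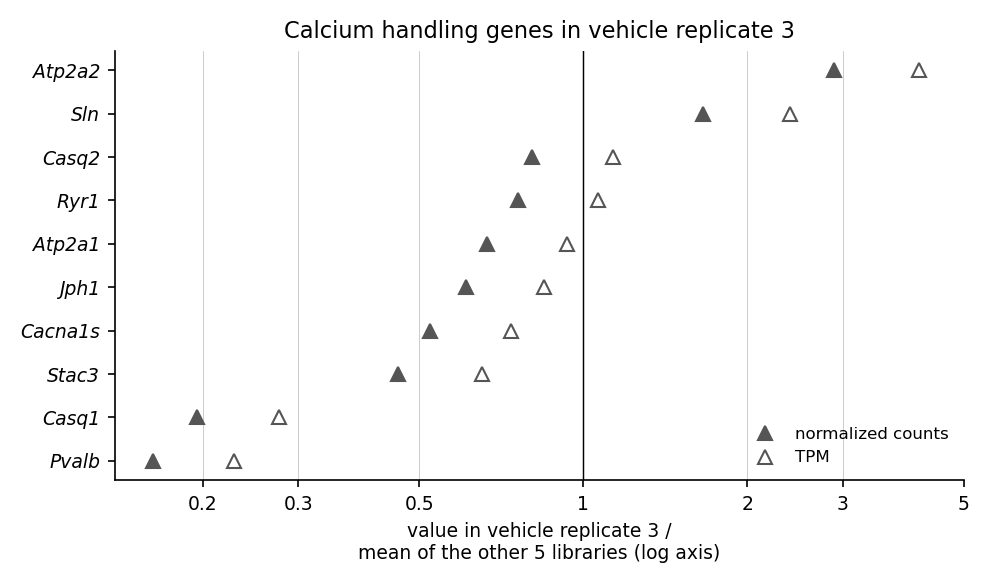
The ratio (log axis) of each gene's level in vehicle replicate 3 to the mean of the other 5 libraries, in normalized counts (filled) and in TPM (open). Pvalb (0.162 and 0.229) and Casq1 (0.196 and 0.276) are far below 1 on both scales and Atp2a2 (2.89 and 4.15) is far above, while Casq2 and Ryr1 are below 1 in normalized counts and above 1 in TPM.

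The release unit genes had log2 fold changes between 0.31 and 0.48. Jph1, which encodes junctophilin-1, a protein that ties the reticulum to the transverse tubule, passed the threshold. Its TPM was 135, 119 and 124 in vehicle and 134, 169 and 176 in BML-260, so that BML-260 replicate 1 lay just below vehicle replicate 1. Its normalized counts were 15922, 15254 and 10990 in vehicle and 18804, 20172 and 20097 in BML-260, and did not overlap. The log2 fold change was 0.48 (SE 0.19, edgeR unadjusted p = 0.0340, adjusted p = 0.788). The call was lost under 7 of 16 alternatives, among them both limma fits on log2 TPM (unadjusted p = 0.0739 and 0.0836) and edgeR without vehicle replicate 3, where the log2 fold change of 0.33 (SE 0.14) was under the fold threshold. It was also lost without each BML-260 library in turn.

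Ryr1, the calcium release channel of the reticulum, had TPM of 367, 350 and 427 in vehicle and 353, 429 and 503 in BML-260, with a log2 fold change of 0.31 (SE 0.23, edgeR adjusted p = 0.788). Cacna1s, the voltage-sensing subunit of the L-type channel, had TPM of 291, 245 and 216 in vehicle and 272, 319 and 337 in BML-260, with a log2 fold change of 0.41 (SE 0.26, edgeR adjusted p = 0.788). For both genes the groups overlapped in TPM but not in normalized counts, where vehicle replicate 3 was lowest. Stac3, an adaptor that the voltage sensor needs to reach and trigger the release channel, had TPM of 97.8, 79.6 and 62.8 in vehicle and 95.8, 110 and 97.8 in BML-260. Its log2 fold change was 0.44 (SE 0.27, edgeR adjusted p = 0.788) and 0.17 without vehicle replicate 3. Stac3 passed the threshold only when vehicle replicate 1 was left out, at 0.68. Without vehicle replicate 3, the log2 fold changes of Ryr1 and Cacna1s were 0.23 and 0.18.

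**Figure D5:**
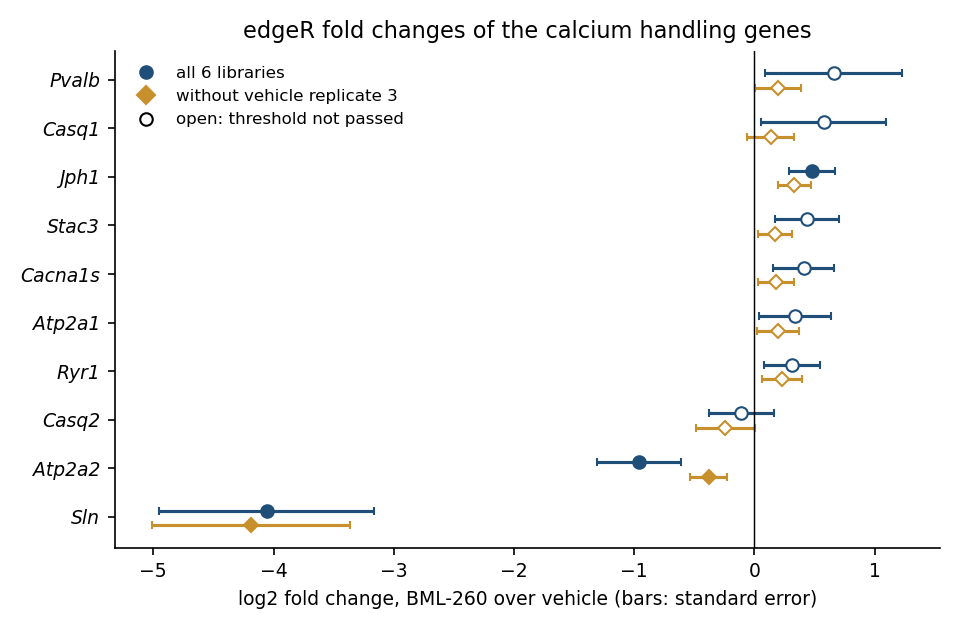
Log2 fold changes of BML-260 over vehicle (points) with standard errors (bars) for the 10 genes, from all 6 libraries (circles) and without vehicle replicate 3 (diamonds), filled where the threshold was passed. Sln lies at -4.06 and -4.19, Atp2a2 moves from -0.96 to -0.38, and the 7 genes above 0 move toward 0 when vehicle replicate 3 is left out.

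A wider list of 66 calcium handling genes outside these 10 held 62 tested genes. Of the 62, 41 had a higher and 21 a lower level with BML-260, where 49.5% of all tested genes were higher. Among the 62, 2 passed the threshold, both lower, against 4.86% of all tested genes called lower. The groups did not overlap for 9, against 12.1% of all tested genes, and the median log2 fold change was 0.11. Vehicle replicate 3 had the lowest normalized count for 33 of the genes and the highest for 17. Cacng1, the gamma subunit of the muscle L-type channel, had TPM of 256, 235 and 406 in vehicle and 172, 201 and 220 in BML-260. The groups did not overlap, with a log2 fold change of -0.41 (SE 0.15, edgeR unadjusted p = 0.0223, adjusted p = 0.788), and the call was lost in 4 of 16 alternatives, leaving out vehicle replicate 3 among them. Orai2, a channel of store-operated calcium entry, had TPM of 0.729, 0.605 and 1.59 in vehicle and 0.434, 0.301 and 0.507 in BML-260, with a log2 fold change of -0.97 (SE 0.26, edgeR unadjusted p = 0.00543, adjusted p = 0.649). It kept its call under all 16 alternatives, at a level near or under 1 TPM in 5 of the 6 libraries.

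Within each role of the wider list, few or no genes passed the threshold. Of the SERCA regulators besides Sln, 2 were tested and neither passed. Mrln, which encodes myoregulin, another small peptide that inhibits SERCA, had TPM of 98.4, 64.1 and 108 in vehicle and 76.1, 133 and 104 in BML-260, with a log2 fold change of 0.37 (SE 0.21, edgeR adjusted p = 0.788), opposite in sign to that of Sln. Phospholamban (Pln), the SERCA inhibitor of heart and slow muscle, had a mean TPM of 1.80 ± 0.89 in vehicle and 1.304 ± 0.55 in BML-260 (SD, n = 3 each). Among 14 release channel partners, 10 were higher and 4 lower and none passed. Of 17 genes of the triad and reticulum, 12 were higher and none passed. Tmem38a, a cation channel that balances charge during calcium release, had a log2 fold change of 0.25 (SE 0.23). Surface extrusion genes (7 tested, 4 higher) and mitochondrial uptake genes (9 tested, 5 higher) held none past the threshold. Their most abundant genes, the sodium-calcium exchanger Slc8a3 and the uniporter subunit Smdt1, had log2 fold changes of 0.36 (SE 0.21) and 0.07 (SE 0.15), and Saraf, a brake on store-operated entry, had -0.06 (SE 0.15). The values of Saraf and Smdt1 changed sign in some alternatives.

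Sypl2 and Jph2 were chosen after their values were seen. Sypl2, a synaptophysin-like protein of the triad (mitsugumin 29), had TPM of 75.3, 76.8 and 21.1 in vehicle and 70.8, 77.3 and 71.5 in BML-260, the pattern of Pvalb and Casq1 in vehicle replicate 3. Jph2, the second junctophilin of muscle, had TPM of 152, 88.0 and 71.6 in vehicle and 177, 140 and 170 in BML-260. Its log2 fold change of 0.75 (SE 0.36, edgeR unadjusted p = 0.0686) did not pass the threshold, although Jph2 passed it under 7 of 16 alternatives, DESeq2 and both limma fits on TPM among them. For Sypl2 the log2 fold change was 0.37 (SE 0.50).

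The genes most like Sln across the 6 libraries, by the Pearson correlation of log2 CPM, were Aif1l (r = 0.996), Bhlhb9 (r = 0.993) and Atp13a3 (r = 0.990), and the correlations over the 5 libraries without vehicle replicate 3 were 0.996, 0.993 and 0.990. The genes most like Pvalb were Ddah1, Fam131a and Ramp1 (r = 1.000, 1.000 and 0.999, and 0.993, 0.995 and 0.977 without vehicle replicate 3). The genes most like Atp2a2 were Gdi2 (r = 0.999), Hdgfl3 (r = 0.996) and Actr3 (r = 0.995). These genes most like Sln, Pvalb and Atp2a2 had the highest correlations among all tested genes that carry a curated name. Atp2a2 itself ran opposite to Atp2a1 (r = -0.98, and -0.99 without vehicle replicate 3) and to Cacna1s (r = -0.99, and -0.88). Pvalb, Casq1, Stac3, Jph1 and Ryr1 also ran opposite to Atp2a2 (r = -0.97 to -0.83, and -0.81 to -0.63). Its correlations with Sln and Casq2 were 0.72 and 0.0013 (0.95 and 0.80 without vehicle replicate 3). In TPM, Atp2a1 was lowest in vehicle replicate 2 (6556), whereas Atp2a2 was highest in vehicle replicate 3 (55.8). The 6 libraries share group, depth and the position of vehicle replicate 3, and all these correlations describe the libraries only.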

How the data were processed

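RNA from the TA muscle of 6 mice was made into stranded total RNA libraries. According to the labels, reads were trimmed with Trimmomatic 0.38 and mapped to genome build mm10 with HISAT2 2.1.0, and the notes also name StringTie 2.1.3b and Bowtie2 2.3.4.1. Annotation, strand setting and treatment of multi-mapped reads are not given in the sources used here. The authors deposited raw counts per gene for all libraries in 1 table, and TPM per library, scaled for transcript length and library total. Genes were kept with edgeR's filterByExpr, scaled by TMM and tested in R 4.3.3 with the quasi-likelihood F-test of edgeR 4.0.16 without a block. P-values were adjusted by Benjamini-Hochberg over 16188 genes. The SE is the log2 fold change divided by the square root of F. Normalized counts used size factors from DESeq2 1.42.0. Single shares were compared by exact permutation over 20 assignments. Alternatives were RLE and upper quartile scaling, other filters, a replicate block, DESeq2, robust edgeR, limma 3.58.1 (voom with sample weights, trend on log2 TPM, pseudocount 1 or 0.1) and each library left out. Fitting was tested on simulated data. Named from the wider list were genes past the threshold and the most abundant gene of each role, and Pln, Sypl2 and Jph2 were named outside this rule. A gene that this rule names is not reported here. The nearest genes by correlation were given for 3 of the 10 genes. The 10 genes and all lists were chosen with earlier results of these data known. Arln and Erln could not be matched, and Strit1 and Stac2 failed the filter. P-values measure the spread between 1 library per mouse. Plots were made with Python 3.11.15 and matplotlib 3.10.9.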

Additional observations from a re-analysis of the deposited data

How the results depend on the processing

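Across 16 alternatives, Sln kept its direction and its call, Atp2a2 lost the call in 4 and Jph1 in 7, and no other of the 10 genes lost or gained one except Stac3, which gained it without vehicle replicate 1. The number of the 10 genes past the threshold, 3 with edgeR, was 1 with limma on log2 TPM with either pseudocount and ranged from 1 to 4 with each library left out. The number with an adjusted p under 0.05, 0 with edgeR, was 1 (Sln) with DESeq2 and ranged from 0 to 1 with each library left out. For the wider list, 2 genes past the threshold became 4 with no filter on low counts, 4 with DESeq2 and 4 with limma on log2(TPM + 0.1). The number was 3 with voom sample weights or limma on log2(TPM + 1). With each library left out it ranged from 1 (without vehicle replicate 3, BML-260 replicate 1 or BML-260 replicate 2) to 13 (without vehicle replicate 1). Over all genes, 931 past the threshold became 446 with limma on log2(TPM + 1), 692 with a pseudocount of 0.1, 1416 without a filter and 503 to 2223 with each library left out. Limma on TPM moved the all-gene median log2 fold change to -0.089 (pseudocount 1) and -0.14 (pseudocount 0.1). Signs turned for Casq2 (-0.28 to 0.26 with each library left out, positive only without vehicle replicate 2), Saraf (0.0027 with voom weights, and -0.12 to 0.015 with each library left out) and Smdt1 (-0.066 and -0.067 with limma on TPM, and -0.036 to 0.16 with each library left out). The cause was not tested. The labels give both groups replicate numbers 1 to 3. The deviations of same-numbered libraries from their group means correlated at 0.162, 0.054 and 0.11, so the numbers were not taken to pair the libraries, although each library correlated best with its own number. With a replicate block, 3 of the 10 genes, 6 of the wider list and 1057 genes in all passed the threshold. The lowest raw count among the 10 genes was 47. With 3 mice per group, no exact test could reach p = 0.05.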

Other observations

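The marker lists below were not used beside the results above, except that the regeneration list shares Myog with the denervation list. Genes of muscle regeneration summed to 132, 197 and 216 TPM in the vehicle libraries and to 132, 146 and 189 TPM in the BML-260 libraries. Of the 5 with TPM, 3 passed the threshold and were lower with BML-260, against 4.86% of all tested genes. Myog was among them, and this list too was chosen with earlier results known. Endothelial markers summed to between 59.7 and 84.5 TPM in the 6 libraries and fibroblast markers to between 313 and 814 TPM, and the groups overlapped in both sums.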
